A study of Homo sapiens with 8 samples.

Results

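The effect of pomalidomide in cells also treated with GNE-781 was read in 4 of the study's 8 ATAC-seq libraries. They are the libraries of JJN3 and KMS11 treated with pomalidomide plus GNE-781 and the libraries of the same lines treated with GNE-781 alone. They were taken from the labels, and the cell line served as a block, so the change was read without the DMSO libraries. JJN3 and KMS11 are established human multiple myeloma cell lines, cultured in RPMI 1640 medium with fetal bovine serum. Pomalidomide was given at 200 nM and GNE-781 at 40 nM, and all cells were collected after 48 h. All 4 libraries carry GNE-781 and differ within a line only by pomalidomide, and the other 4 received DMSO, the solvent, or pomalidomide alone. Each line and treatment has 1 library, and the labels name no separate cultures. The p-values therefore reflect only how these samples vary, and that variation may be technical.

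Pomalidomide binds cereblon, the substrate receptor of an E3 ubiquitin ligase, and thereby sends the zinc finger transcription factors IKZF1 (Ikaros) and IKZF3 (Aiolos) to the proteasome. In myeloma cells the loss of these factors is known to lower IRF4 and MYC, on which plasma cell tumours depend. GNE-781 blocks the bromodomains of EP300 and CREBBP, acetyltransferases that mark histones at active enhancers. ATAC-seq counts insertions of a transposase, which reaches DNA that is not covered by nucleosomes, so a higher count at a site stands for more accessible chromatin there. In bulk cells a site open in fewer cells and a site less open per cell cannot be told apart.

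The sequences shown first are those of promoters at which a peak was higher with pomalidomide. They were chosen after the values were seen, from genes described in the results, and each holds a marked pattern. They are PIPOX, the promoter gene with the lowest adjusted p, MME (CD10), and the interferon-induced genes DDX58 (RIG-I) and PLSCR1. The IL6ST promoter, also described below, held none of the patterns searched and is not shown. Each line gives the 250 bases before the RefSeq start, 5′ to 3′ on the gene's strand, from the GRCh38.p14 table. Capitals mark TGGGAA, the core that Ikaros family proteins bind, in PIPOX and MME. In DDX58 and PLSCR1 they mark GGAANNGAA, an ETS and IRF composite pattern, or GAAANNGAA, a pattern found in interferon response elements.
PIPOX: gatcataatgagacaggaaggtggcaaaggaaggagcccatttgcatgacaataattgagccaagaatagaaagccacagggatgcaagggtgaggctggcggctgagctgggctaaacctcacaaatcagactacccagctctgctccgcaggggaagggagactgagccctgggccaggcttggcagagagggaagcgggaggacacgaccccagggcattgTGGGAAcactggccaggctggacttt
MME: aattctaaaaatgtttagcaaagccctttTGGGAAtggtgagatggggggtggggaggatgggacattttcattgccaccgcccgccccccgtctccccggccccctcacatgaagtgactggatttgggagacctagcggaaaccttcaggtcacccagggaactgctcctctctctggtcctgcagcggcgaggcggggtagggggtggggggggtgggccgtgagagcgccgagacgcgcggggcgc
DDX58: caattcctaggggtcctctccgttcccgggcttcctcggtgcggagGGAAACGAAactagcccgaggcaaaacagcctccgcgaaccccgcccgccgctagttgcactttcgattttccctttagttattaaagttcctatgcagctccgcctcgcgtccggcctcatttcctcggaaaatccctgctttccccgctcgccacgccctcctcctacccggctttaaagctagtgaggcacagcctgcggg
PLSCR1: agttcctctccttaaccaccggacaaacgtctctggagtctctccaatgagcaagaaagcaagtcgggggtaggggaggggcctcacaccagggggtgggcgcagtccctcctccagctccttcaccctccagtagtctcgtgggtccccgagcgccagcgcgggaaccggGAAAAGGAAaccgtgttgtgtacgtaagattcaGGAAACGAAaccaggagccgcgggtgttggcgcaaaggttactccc

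The PIPOX window lies at chr17:29042891-29043140 on the plus strand, and the MME window at chr3:155079422-155079671 on the plus strand. DDX58, which RefSeq names RIGI, has its window at chr9:32526197-32526446 on the minus strand, and PLSCR1 at chr3:146544608-146544857 on the minus strand. Both strands were searched, and GGAANNGAA and GAAANNGAA can overlap each other. Of 92 promoter peaks that rose, 53 matched a RefSeq symbol and 25 overlapped the window of their gene. Of those 25 windows, 6 held TGGGAA (24.0%), against 20.8% of all 35116 windows of this length. GGAANNGAA was in 3 of 25 (12%, against 6.58% of all), GAAANNGAA in 2 (8.0%, against 6.88%) and the AP-1 pattern TGANTCA in 1 (4.0%, against 6.57%). These shares rest on few windows and are a description of letters, not of bound sites.

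The counted reads in peaks ranged from 1582277 (JJN3, GNE-781) and 2060036 (JJN3, both drugs) to 2981408 (KMS11, GNE-781) and 5435673 (KMS11, both drugs). The library with pomalidomide was thus the deeper of its pair in both lines, and it was also the deeper on DMSO (1366628 against 3218581 in JJN3, 3786690 against 4586400 in KMS11). Promoter peaks took 47.5% to 50.9% of the counts in all 8 libraries. Of 21 plasma cell surface and secretory genes, 17 had a peak; TNFRSF17 (BCMA), GPRC5D, CD27 and JCHAIN had none under their names in the deposited annotation. SDC1 (CD138), the surface proteoglycan that defines plasma cells, had 8 tested peaks.

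In the presence of GNE-781, many more peaks were called higher than lower with pomalidomide. By edgeR's quasi-likelihood test, 967 of 62068 tested peaks rose (1.56%) and 168 fell (0.271%) at a Benjamini-Hochberg adjusted p under 0.05. At an unadjusted p under 0.05 in that test, 4159 were higher and 3060 lower. Over all tested peaks the median log2 change was -0.025. The part of depth and of peak calling in this split was not tested. The median log2 change was 1.47 among the rises and -1.13 among the falls, and 810 rises and 106 falls were at least 2-fold. In 929 of the 967 rises and 164 of the 168 falls, JJN3 and KMS11 moved in the same direction. Over all 62068 tested peaks, 34302 did. The calls came from these same libraries, so these counts are a description. The number of calls rested on the test. DESeq2's Wald test called 9 peaks, all higher. A fit of all 8 libraries called 622 higher and 59 lower. Counts thinned to the shallowest library gave 0 calls with edgeR (lowest adjusted p 0.731, 4083 peaks at an unadjusted p under 0.05), although all 1131 calls still tested kept their sign, with a median of 1.4 among the rises. The edgeR fit without the cell line block gave 0 calls, with 444 peaks at an unadjusted p under 0.05. In the 8-library fit, leaving out the JJN3 library with GNE-781 left 656 calls, and leaving out the JJN3 library with both drugs left 353. Without the KMS11 library with GNE-781 it was 56, and without the KMS11 library with both drugs 91.

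Among peaks that moved the same way in both lines and had a mean of at least 20 counts, the largest rise lay in an intergenic peak at chr12:124764819-124765345, nearest to SCARB1, the receptor for high-density lipoprotein, 98572 bp from its start. A gene named beside a peak is the nearest in the deposited annotation. The level of the SCARB1 peak in CPM, the count scaled by library total, was 1.28 in JJN3 and 1.29 in KMS11 with GNE-781, and 24.3 and 10.7 with both drugs. These levels stand for 2 and 4 counts with GNE-781, and for 50 and 60 with both drugs. A ranking by log2 change favours peaks with so few counts without pomalidomide. The groups did not overlap, and the fitted log2 change was 3.51 ± 0.50 (SE of the fit, n = 2 lines; adjusted p = 7.13e-09, edgeR). Each SE was derived from the edgeR test, with a spread mostly pooled across peaks or genes, and does not measure the spread between lines. On DMSO, pomalidomide took the same site from 3.74 to 26.7 CPM in JJN3 and from 3.11 to 14.1 in KMS11. The peak kept its call whichever of the 4 libraries was left out, with log2 changes from 3.12 to 4.08.

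CTNND1, which encodes p120-catenin, the partner that holds cadherins at the cell surface, had the lowest adjusted p of all peaks. The peak lies within the gene at chr11:57778256-57779005, 14403 bp from the start. It rose from 9.62 to 34.5 CPM in JJN3 and from 1.94 to 39.3 CPM in KMS11. The libraries with pomalidomide were close to each other, while the libraries without it differed between the lines. The log2 change was 2.99 ± 0.32 (SE; adjusted p = 4.31e-16), beside 3.22 on DMSO (adjusted p = 3.77e-10). Within the lines the change on GNE-781 was 1.79 in JJN3 and 3.96 in KMS11. A second CTNND1 peak, 1381 bp from the start, rose from 2.57 to 13.1 CPM in JJN3 and from 0.971 to 6.4 in KMS11, a log2 change of 2.49 (adjusted p = 0.00175). Summed over its 3 peaks, CTNND1 went from 20.9 to 56.5 CPM in JJN3 and from 9.52 to 54.2 in KMS11, a log2 change of 2.02 ± 0.24 (SE; adjusted p = 2.55e-08). It was 1 of the 2 genes that DESeq2 also called (adjusted p = 0.0104). Without the KMS11 library with GNE-781 the summed change was 1.37 (adjusted p = 0.157) and that of the first peak 1.65 (adjusted p = 0.106).

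The other large rises in both lines lay at or near LINC01090 (log2 change 3.09), CCDC91 (3.06), PCDH9 (2.99), RP11-313C4.1 (2.94), RP11-603B13.1 (2.92), TAF2 (2.92), RP11-578C11.2 (2.87) and NF1 (2.85). TAF2 encodes a subunit of the general transcription factor TFIID; its peak lies within the gene, 5120 bp from the start, and rose from 3.21 to 19.4 CPM in JJN3 and from 1.94 to 17.8 in KMS11. NF1 encodes neurofibromin, a brake on RAS; its intragenic peak went from 1.28 to 4.85 CPM in JJN3 and from 1.94 to 17.2 in KMS11. PCDH9, a protocadherin, went from 1.28 to 11.6 CPM in JJN3 and from 1.29 to 9.96 in KMS11. With GNE-781 alone, the counts in JJN3 and KMS11 were low: 2 and 4 at PCDH9, 2 and 5 at LINC01090, 2 and 6 at NF1, and 5 and 6 at TAF2. At PCDH9 the change on DMSO was 1.18 (adjusted p = 0.441), and at LINC01090 it was 0.83 (adjusted p = 0.670). The peak near CCDC91 rested on KMS11: JJN3 had 0 counts with GNE-781 and 2 with both drugs. Without the KMS11 library with both drugs its change was 2.08 (adjusted p = 0.806). Without the KMS11 library with GNE-781, NF1 was at 2.09 (adjusted p = 0.650), PCDH9 at 2.89 (adjusted p = 0.255), LINC01090 at 2.80 (adjusted p = 0.281) and RP11-313C4.1 at 2.1 (adjusted p = 0.0678).

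**Figure D1:**
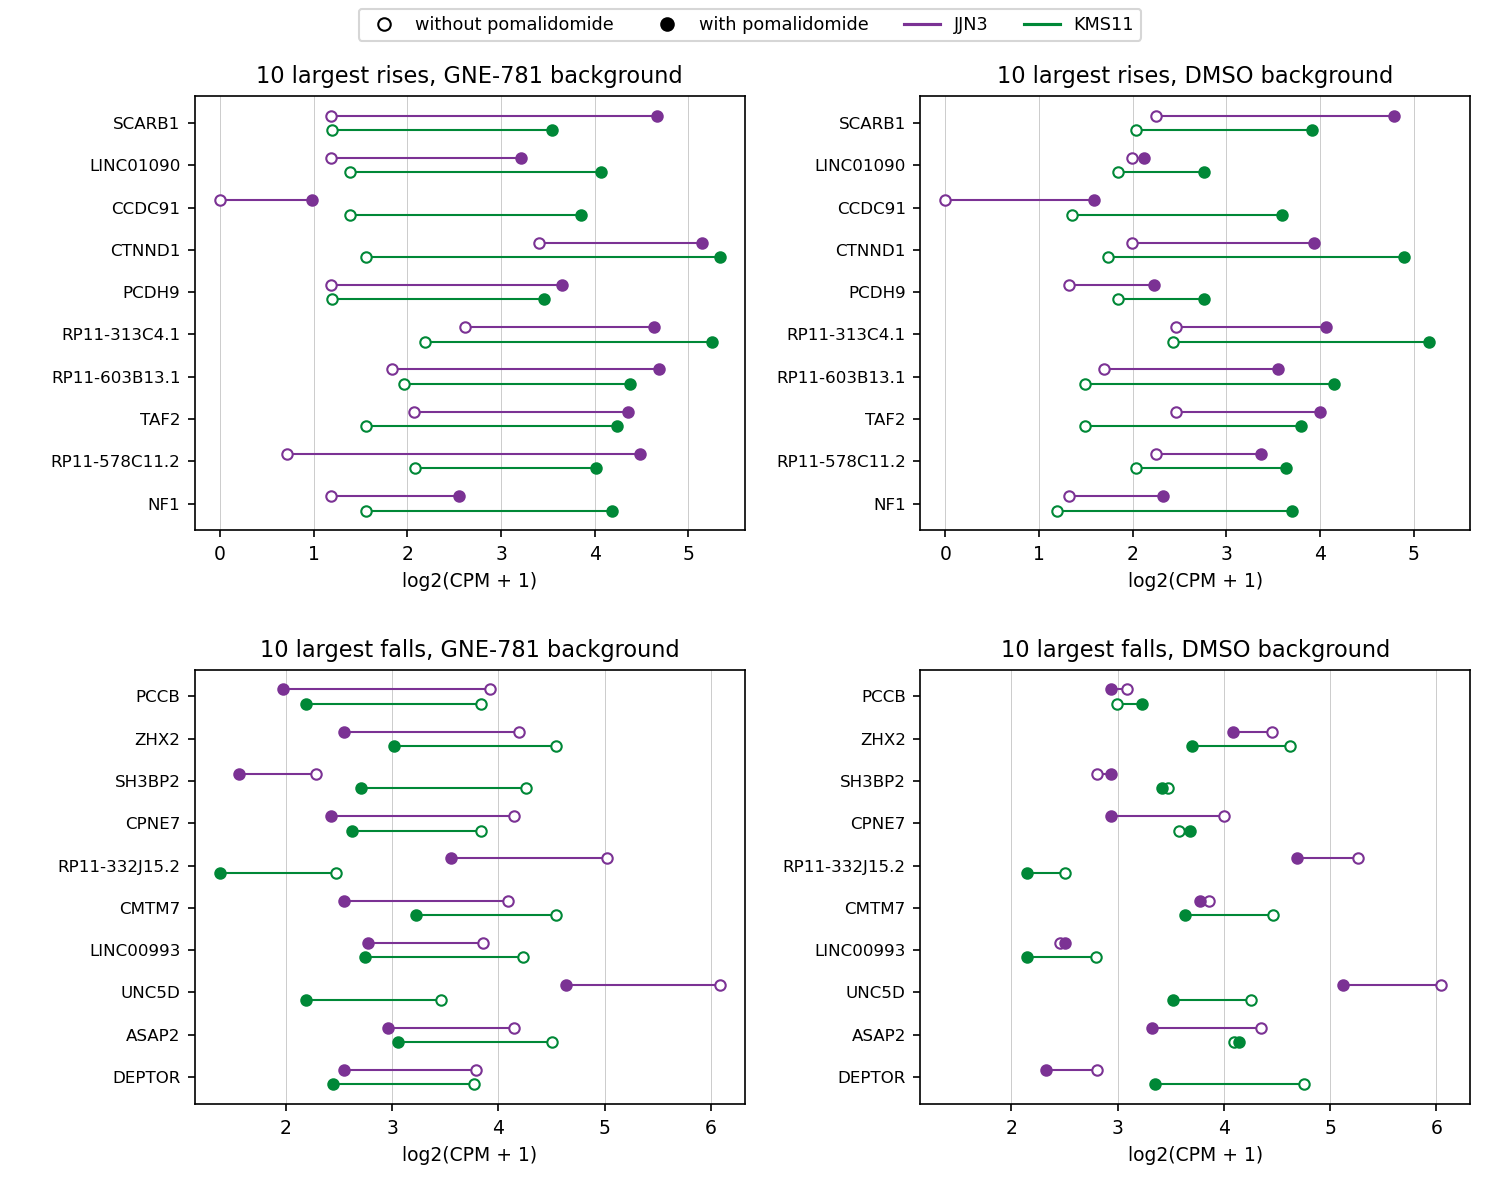
Level of the 10 largest called rises and falls in all 8 libraries, on a log2(CPM + 1) axis; open points are libraries without pomalidomide, filled points libraries with it, and a line joins the pair of a cell line (JJN3 purple, KMS11 green). The left panels are the GNE-781 background that chose the peaks and the right panels the DMSO background that did not; every rise is to the right on both, while PCCB, SH3BP2, CPNE7, LINC00993 and ASAP2 have a line that is not lower on DMSO.

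RP11-603B13.1 and RP11-578C11.2 are long noncoding RNA genes whose nearby peaks, with those of SCARB1 and TAF2, kept their call whichever compared library was left out. These 4 were the only such peaks among the 53 named by rule. These leave-out fits start from the fit of all 8 libraries, in which 38 of the 53 stayed called before any was left out, the 10 rises and 10 falls among them. The 15 others are peaks of the gene lists, with adjusted p from 0.051 to 0.132 in that fit. Of the 53, 5 stayed called without the KMS11 library with GNE-781, 10 without the KMS11 library with both drugs, 22 without the JJN3 library with both drugs and 30 without the JJN3 library with GNE-781.

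The 9 peaks that DESeq2 called lay at or near ST14, RP11-313C4.1, RP13-616I3.1, VAV3-AS1, BCL9, KIF25, COL9A1, RP11-603B13.1 and ATXN1. They stand outside the rule for named peaks and were picked after their values were seen. ST14 encodes matriptase, a membrane serine protease, and its intragenic peak went from 23.1 to 83.0 CPM in JJN3 and from 3.88 to 25.6 in KMS11 (log2 change 2.16 ± 0.25, SE; edgeR adjusted p = 2.65e-13, DESeq2 adjusted p = 0.00473). BCL9 encodes a coactivator of beta-catenin; its peak went from 5.77 to 31.1 CPM in JJN3 and from 5.82 to 29.5 in KMS11 (log2 change 2.36, edgeR adjusted p = 1.10e-09). ATXN1 encodes a chromatin-associated protein, and its peak went from 29.5 to 83.5 CPM in JJN3 and from 11.3 to 36.3 in KMS11. Within JJN3 and KMS11 the log2 changes were 1.84 and 2.54 at ST14, 2.33 and 2.22 at BCL9, and 1.5 and 1.62 at ATXN1.

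The called falls were smaller than the called rises and lay on higher levels with GNE-781 alone. The same libraries made the calls, and a peak near the floor can hardly be called lower, so this is a description. The largest fall by the same rule lay within PCCB, a subunit of mitochondrial propionyl-CoA carboxylase. It went from 14.1 to 2.91 CPM in JJN3 and from 13.3 to 3.56 in KMS11. Its log2 change was -2.02 ± 0.41 (SE; adjusted p = 0.000265), and on DMSO it was 0.10 (adjusted p = 0.976). The ZHX2 promoter, of a zinc finger and homeobox repressor, went from 17.3 to 4.85 CPM in JJN3 and from 22.3 to 7.11 in KMS11 (log2 change -1.71, adjusted p = 0.000125). A peak 35368 bp into DEPTOR, an inhibitor of mTOR that myeloma cells often express highly, went from 12.8 to 4.85 CPM in JJN3 and from 12.6 to 4.45 in KMS11. It was called on DMSO too, with log2 changes of -1.46 on GNE-781 and -1.27 on DMSO. UNC5D, a netrin receptor, was the other of these 10 called on both backgrounds, at -1.48 and -0.88. The remaining 6 were SH3BP2 (-1.59), CPNE7 (-1.56), RP11-332J15.2 (-1.53), CMTM7 (-1.51), LINC00993 (-1.49) and ASAP2 (-1.48). All 10 kept their call in the fit of all 8 libraries, and none in every fit that left out 1 of them. SH3BP2 without the KMS11 library with GNE-781 was at -0.43 (adjusted p = 0.980), and DEPTOR without the KMS11 library with both drugs at -0.75 (adjusted p = 0.832).

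The rises were mainly distal. Promoter peaks, within 1000 bp of the annotated start, were 25.6% of those tested and 9.51% of the rises. Of promoter peaks 0.579% rose, of peaks inside genes 1.86% and of intergenic peaks 1.94%. By distance from the start, the share that rose was 1.64% at 1 to 10 kb, 2% at 10 to 50 kb, 2.15% at 50 to 100 kb and 1.82% beyond. The falls were spread more evenly, with 0.151% of promoter peaks, 0.341% of intragenic peaks and 0.272% of intergenic peaks.

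Among the promoters that rose, PIPOX, an enzyme of lysine and sarcosine oxidation, went from 14.1 to 32.5 CPM in JJN3 and from 20.4 to 60.8 in KMS11 (log2 change 1.45 ± 0.23, SE; adjusted p = 3.61e-07). MME, the neprilysin peptidase known as CD10 on B cell precursors, went from 37.8 to 68.4 CPM in JJN3 and from 17.5 to 37.9 in KMS11 (log2 change 0.99, adjusted p = 0.000499). ALCAM, an adhesion molecule, went from 38.5 to 64.1 CPM in JJN3 and from 26.2 to 53.5 in KMS11 (log2 change 0.90, adjusted p = 0.000877). PLSCR1, a phospholipid scramblase induced by interferon, went from 35.3 to 66.5 CPM in JJN3 and from 47.6 to 71.1 in KMS11 (log2 change 0.71, adjusted p = 0.00884). PIPOX, MME, ALCAM and PLSCR1 were also called on DMSO, at 1.23, 0.88, 0.80 and 0.80. Of promoters that fell, KLF9, a Krüppel-like repressor, went from 26.9 to 9.22 CPM in JJN3 and from 56.6 to 24.2 in KMS11 (log2 change -1.32, adjusted p = 1.05e-05). TIGIT, an inhibitory receptor of T and NK cells, went from 59.6 to 37.4 CPM in JJN3 and from 68.6 to 40.9 in KMS11 (log2 change -0.72, adjusted p = 0.00796). These promoters were picked after their values were seen.

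A few genes held several called peaks. NRCAM, a neuronal cell adhesion molecule, had 6 rises and 1 fall among 20 tested peaks. The rise with the lowest adjusted p, at chr7:108323972-108325257, went from 22 to 47 counts in JJN3 and from 37 to 281 in KMS11 (log2 change 1.58, adjusted p = 1.60e-06). RP11-15B24.5, a noncoding gene on chromosome 9, had 4 rises among 11 peaks, with log2 changes of 1.42 to 2.27. DEC1 had 3 rises among 9. Near KRT8P17, a keratin pseudogene on chromosome X, 4 of 20 peaks rose, with changes of 1.93 to 2.69 in KMS11 and 0.14 to 0.92 in JJN3.

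TTC34, a gene on chromosome 1, held 7 falls among 16 peaks and no rise. Summed over its peaks, TTC34 went from 1570 to 1090 CPM in JJN3 and from 1330 to 910 in KMS11, a log2 change of -0.53 (adjusted p = 1.46e-06). On DMSO it went from 2550 to 1460 CPM in JJN3 and from 1030 to 1130 in KMS11. The shallowest of the 8 libraries, JJN3 with DMSO, had the highest TTC34 level, and the deepest, KMS11 with both drugs, the lowest. In between, level did not follow depth throughout. JJN3 with both drugs (2060036 counts) was at 1090 CPM, and KMS11 with pomalidomide alone (4586400 counts) at 1130. Chromosome 1 also carries the 5S ribosomal RNA gene cluster: of 14 peaks at 13 copies, 6 fell and none rose, with log2 changes of -0.77 to -0.25. Their median was -0.14 in JJN3 and -0.81 in KMS11. The copies are near identical, so the counts of any copy are uncertain, and the part of depth in the falls at TTC34 and the 5S copies was not tested. These copies were picked after their values were seen.

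Most of these sites also had a change of the same sign when pomalidomide was given without GNE-781. The DMSO comparison shares no library with that on GNE-781 and called 872 peaks higher (1.41%) and 242 lower (0.391%) of 61842. Of 961 peaks that rose on GNE-781 and were tested in both, 958 were higher on DMSO (99.7%) and 403 were called higher (41.9%, which is 46.4% of the 869 DMSO rises tested in both). Of 167 that fell, 145 were lower on DMSO (86.8%) and 11 were called lower (6.59%, or 4.58% of the 240 DMSO falls). No peak was called in opposite directions. Over all 61502 peaks tested in both, 63.1% had the same sign. In both comparisons the library with pomalidomide was the deeper of its pair in each line, and both were read over the same set of peaks. The part of depth and of peak calling in the shared direction was not tested. Changes were larger in the comparison that called them. The rises on GNE-781 had a median of 1.47 there and 1.04 on DMSO, and the rises on DMSO had 1.45 there and 1.05 on GNE-781. The falls on GNE-781 had medians of -1.12 there and -0.41 on DMSO, and the falls on DMSO had -1.22 there and -0.52 on GNE-781. The fit of all 8 libraries made 780 calls on DMSO. From that fit, 610 were left without the JJN3 library with DMSO and 603 without the JJN3 library with pomalidomide. Without the KMS11 libraries they numbered 68 (DMSO) and 64 (pomalidomide), thinning left 235, and DESeq2 called 0, with 1087 peaks at an unadjusted p under 0.05.

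**Figure D2:**
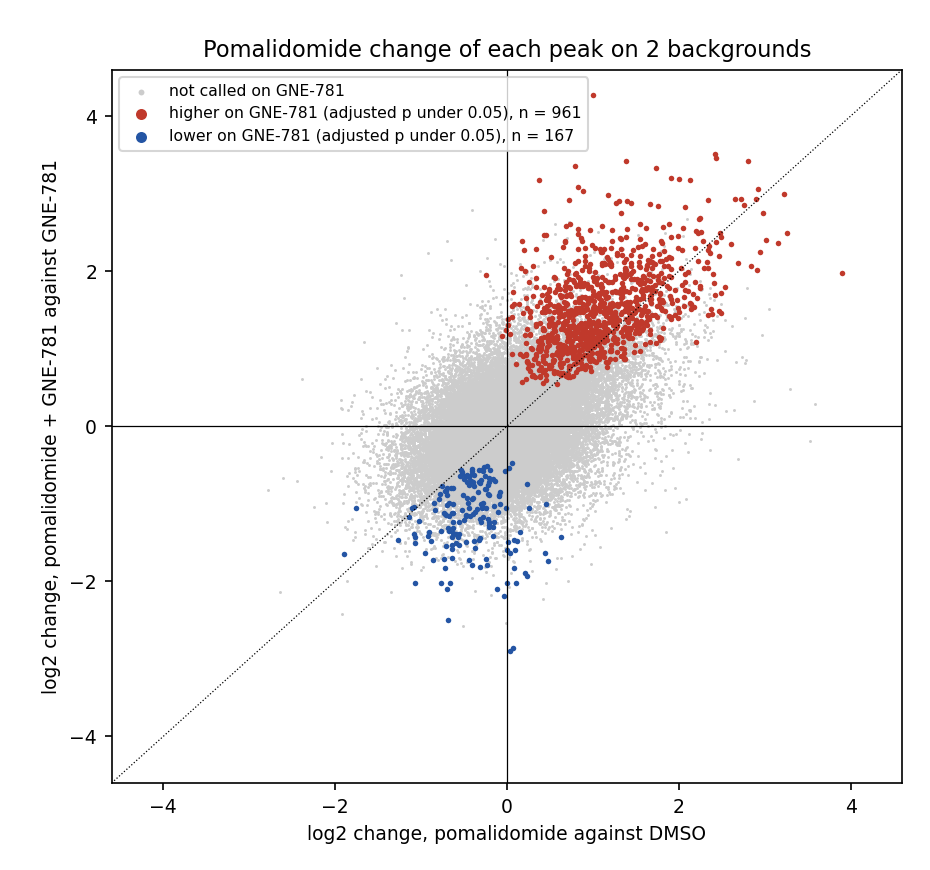
Fitted log2 change of each of the 61502 peaks tested on both backgrounds, on DMSO (x axis) and on GNE-781 (y axis); red points rose and blue points fell on GNE-781, and the dotted line marks equal change. Of the red points 958 of 961 lie to the right of 0, and of the blue points 145 of 167 lie to the left.

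The peaks that rose were at a like level in the libraries without pomalidomide whether or not GNE-781 was present. Their median was 7.48 CPM with DMSO and 6.41 with GNE-781 in JJN3, and 6.73 and 5.82 in KMS11. With pomalidomide alone it was 12.7 CPM in JJN3 and 16.5 in KMS11, and with both drugs 18.0 and 18.3. The lines thus lay close together with both drugs and further apart with pomalidomide alone. The peaks that fell had medians of 22.4 (DMSO), 17 (pomalidomide), 24.4 (GNE-781) and 10.7 CPM (both) in JJN3, and 18.3, 12.6, 19.4 and 8.36 in KMS11. Over all tested peaks the medians stayed between 8.71 and 9.22 CPM. The GNE-781 libraries chose these peaks, so their levels there are a description.

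**Figure D3:**
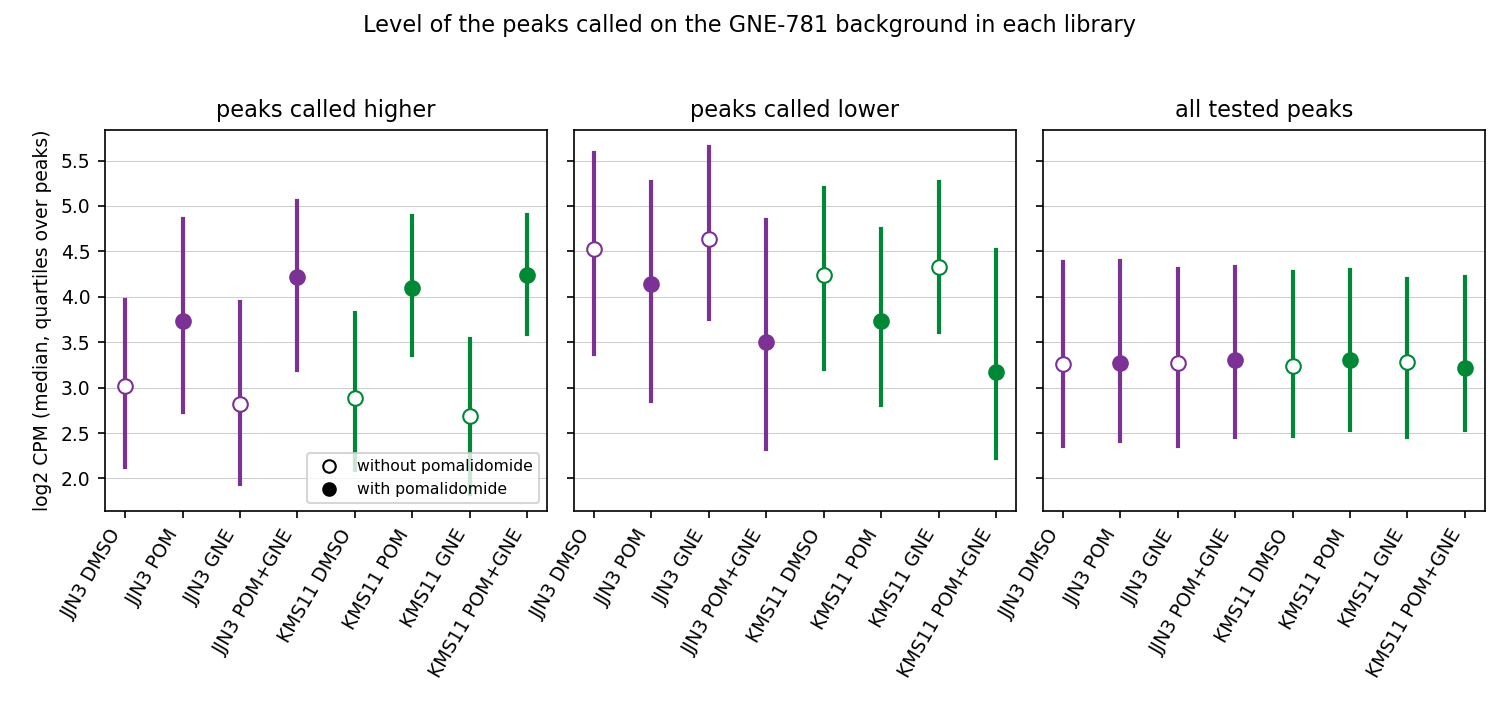
Level of the called peaks in each of the 8 libraries as log2 CPM; points are medians over peaks, bars run from the lower to the upper quartile, and filled points are libraries with pomalidomide. The median of the 967 rises is higher in all 4 libraries with pomalidomide and that of the 168 falls lower. The median of all 62068 tested peaks stays level. Of 961 rises tested on both backgrounds 768 were higher in all 4 pairs, and of 167 falls 104 were lower. Among all 61502 peaks tested on both, 6947 were higher in all 4 pairs and 7092 lower. The GNE-781 pairs chose the peaks.

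Whether the pomalidomide change itself differed between the backgrounds was tested with all 8 libraries. No peak of 62234 passed (0%; edgeR, lowest adjusted p 0.9999), and 1643 had an unadjusted p under 0.05 (2.64%). The largest of the named falls had the lowest unadjusted p among named peaks: at PCCB the change was lower by 2.12 on GNE-781 (log2 scale, unadjusted p = 0.000303). MX1, an interferon-induced GTPase, had a distal peak that fell by 1.64 on GNE-781 and had a change of 0.44 on DMSO (difference -2.08, unadjusted p = 0.00330). Both peaks were named for their call on GNE-781, which enters this difference, so their low unadjusted p was favoured by that choice. With 1 library per line and treatment, a peak's call on a single background does not show that the backgrounds differ.

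The genes that encode the drug's direct targets did not pass the test in their summed signal. Summed over peaks, 226 of 25100 genes rose (0.9%) and 40 fell (0.159%) in edgeR's test. DESeq2 called 2 and the edgeR fit of all 8 libraries 131. From the 8-library fit, leaving out the JJN3 libraries left 107 (GNE-781) and 41 (both drugs), and leaving out the KMS11 libraries 5 and 26. IKZF1 went from 99.3 to 121 CPM in JJN3 and from 66.0 to 63.4 in KMS11, and did not pass (log2 change 0.11 ± 0.15, SE; adjusted p = 0.906). IKZF3 went from 115 to 171 CPM in JJN3 and from 193 to 220 in KMS11 (log2 change 0.35 ± 0.12, SE; adjusted p = 0.185). Of its 9 peaks 2 rose, at 107685 and 105914 bp from the start: the first went from 17.3 to 55.8 CPM in JJN3 and from 43.0 to 53.5 in KMS11. CRBN, which encodes cereblon, was at 58.8 and 52.5 CPM in JJN3 and at 29.5 and 34.0 in KMS11 (log2 change 0.04, adjusted p = 0.978). None of the list peaks chosen by rule kept its call in all 4 leave-out fits. Near DDB1, the adaptor of the cereblon ligase, a peak 35182 bp from the start went from 7.70 to 16.0 CPM in JJN3 and from 2.91 to 30.9 in KMS11. Its log2 change was 2.40 (adjusted p = 3.61e-08), beside 3.02 on DMSO, and it was at 1.00 without the KMS11 library with GNE-781 (adjusted p = 0.734). ZBTB16, a zinc finger factor that cereblon drugs can degrade, had an intragenic peak that rose by 1.72 (adjusted p = 0.00308). No peak of the 32 at acetyltransferase and BET reader genes passed, beside 1.56% that rose and 0.271% that fell over all peaks.

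Of the factors that maintain plasma cell identity, IRF4 was at 40.5 and 54.0 CPM in JJN3 and at 72.4 and 57.3 in KMS11 (log2 change -0.05, adjusted p = 0.967). MYC was at 154 and 114 CPM in JJN3 and at 75.2 and 66.9 in KMS11, and did not pass (log2 change -0.29 ± 0.14, SE; adjusted p = 0.482). On DMSO the MYC change was 0.08. Over 23 myeloma and plasma cell transcription factors, 5 of 185 peaks rose (2.7%) and none fell, against 1.56% and 0.271% over all peaks. The median gene change was 0.02, beside 0.00 over all genes. The 5 peaks lay at MEF2C, RUNX2, RUNX1, POU2AF1 and KLF13. The MEF2C peak went from 2.57 to 6.79 CPM in JJN3 and from 5.82 to 21.3 in KMS11 (log2 change 1.76, adjusted p = 0.00170), and it was called on DMSO at 2.07. RUNX2, a runt factor of bone that myeloma cells can express, had a peak 375586 bp from its start that rose from 3.85 to 21.8 CPM in JJN3 and from 2.91 to 6.76 in KMS11. SDC1 was at 144 and 122 CPM in JJN3 and at 133 and 115 in KMS11 (log2 change -0.22, adjusted p = 0.614). In the plasma cell surface and secretory list none of 71 peaks rose and 1 fell, in TXNDC5, a protein disulfide isomerase, at -1.05 (adjusted p = 0.0289). The summed signals of XRCC5 (a DNA end-binding repair factor, 0.23), CCND1 (cyclin D1, -0.16), NFKBIA (an inhibitor of NF-kB, 0.10) and DEPTOR (-0.09) did not pass.

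Of 93 peaks at ETS family genes 5 rose (5.38%, against 1.56% over all peaks) and none fell. All lists were chosen with earlier results of these data known, so their shares are a description. ETS1, a regulator of lymphoid differentiation, had an intragenic peak that went from 49.4 to 82 CPM in JJN3 and from 10.4 to 22.2 in KMS11 (log2 change 0.88, adjusted p = 0.00560). The others lay in ETV7 (1.31), FLI1 (1.28) and ETV6 (1.15 and 1.01). The median over 20 ETS genes was 0.05. At AP-1 and BATF genes 2 of 53 peaks rose: BACH2, a repressor of plasma cell differentiation (0.76), and the promoter of BATF2, an interferon-induced factor, which went from 10.9 to 24.8 CPM in JJN3 and from 7.76 to 15.3 in KMS11 (log2 change 1.06, adjusted p = 0.0481).

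At 28 interferon response genes 1 of 64 peaks rose and 1 fell (1.56% each), with a median gene change of 0.11. Over all peaks 1.56% rose and 0.271% fell. The rise was the DDX58 promoter shown above, a cytosolic sensor of viral RNA, from 14.7 to 28.1 CPM in JJN3 and from 14.9 to 36.3 in KMS11 (log2 change 1.15 ± 0.26, SE; adjusted p = 0.00154). On DMSO it went from 15.0 to 25.4 and from 18.9 to 33.2 CPM, and its change of 0.79 did not pass there (adjusted p = 0.0777). USP18, which restrains interferon signalling, went from 32 to 47.5 CPM in JJN3 and from 32.1 to 52.6 in KMS11 and did not pass (log2 change 0.67, adjusted p = 0.0847). At NF-kB response genes 1 of 78 peaks rose, in TNIP1, an inhibitor of that pathway (1.22, adjusted p = 0.0156, and 0.40 without the KMS11 library with GNE-781).

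PMAIP1 encodes NOXA, a BH3-only killer of the BCL2 family. Its peak 17395 bp from the start went from 15.4 to 23.8 CPM in JJN3 and from 12.3 to 37.7 in KMS11 (log2 change 1.24 ± 0.26, SE; adjusted p = 0.000744). Summed over 4 peaks PMAIP1 rose by 0.58 (adjusted p = 0.0256), and at 0.57 it did not pass in the fit of all 8 libraries (adjusted p = 0.0822). Nor did it pass without any 1 of the 4 libraries, with changes from 0.38 (without KMS11 with GNE-781, adjusted p = 0.944) to 0.70 (without JJN3 with GNE-781, adjusted p = 0.0929). A peak in BCL2L1, which encodes the survival protein BCL-XL, was called at 1.74 and rested on KMS11: it went from 6.15 to 25.8 CPM there and from 2.57 to 2.43 in JJN3. Without the KMS11 library with both drugs its change was 0.07 (adjusted p = 0.995), and without the one with GNE-781 it was 1.04 (adjusted p = 0.897). These 2 were the called peaks among 75 of the BCL2 family (2.67%, against 1.56% that rose over all peaks), whose 14 genes had a median of -0.01. At cell cycle entry genes 1 of 82 peaks rose, in CCND3 (2.1), and 1 fell, in CDK6 (-1.23). The CCND3 peak went from 4 to 10 counts in JJN3 and from 4 to 53 in KMS11.

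In the IL-6, JAK and STAT3 pathway 3 of 54 peaks rose. The promoter of IL6ST, the shared gp130 receptor chain, went from 70.5 to 91.7 CPM in JJN3 and from 72.1 to 115 in KMS11 (log2 change 0.54, adjusted p = 0.0301). A peak inside PTPN6, the phosphatase SHP-1, rose by 1.1 (adjusted p = 0.00979) and one inside STAT3 by 2.14 (adjusted p = 0.0338). The STAT3 peak had few counts, from 0 to 13 in JJN3 and from 7 to 37 in KMS11. Its change ranged from 1.76 to 6.87 over the leave-out fits. At adhesion and homing genes 5 of 75 peaks rose (6.67%) and 1 fell, which beside the CTNND1 pair took in VCAM1 (1.57), CDH2 (1.03) and, as the fall, CDH1 (-1.14), the epithelial cadherin that p120-catenin binds. Among the brakes on PI3K and mTOR, PHLPP1, an AKT phosphatase, had a peak 325143 bp from its start that went from 86.6 to 155 CPM in JJN3 and from 24.9 to 51.7 in KMS11 (log2 change 0.94, adjusted p = 1.50e-05). A peak 924697 bp from the start of INPP4B, a lipid phosphatase, rose by 1.79 (adjusted p = 0.0386), and the DEPTOR peak was the fall. No gene of this list passed in its summed signal. Over all peaks 1.56% rose and 0.271% fell, and no list held more than 6 called peaks. The lists, with CTNND1 in that of adhesion, were chosen with earlier results of these data known, which can raise such shares.

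**Figure D4:**
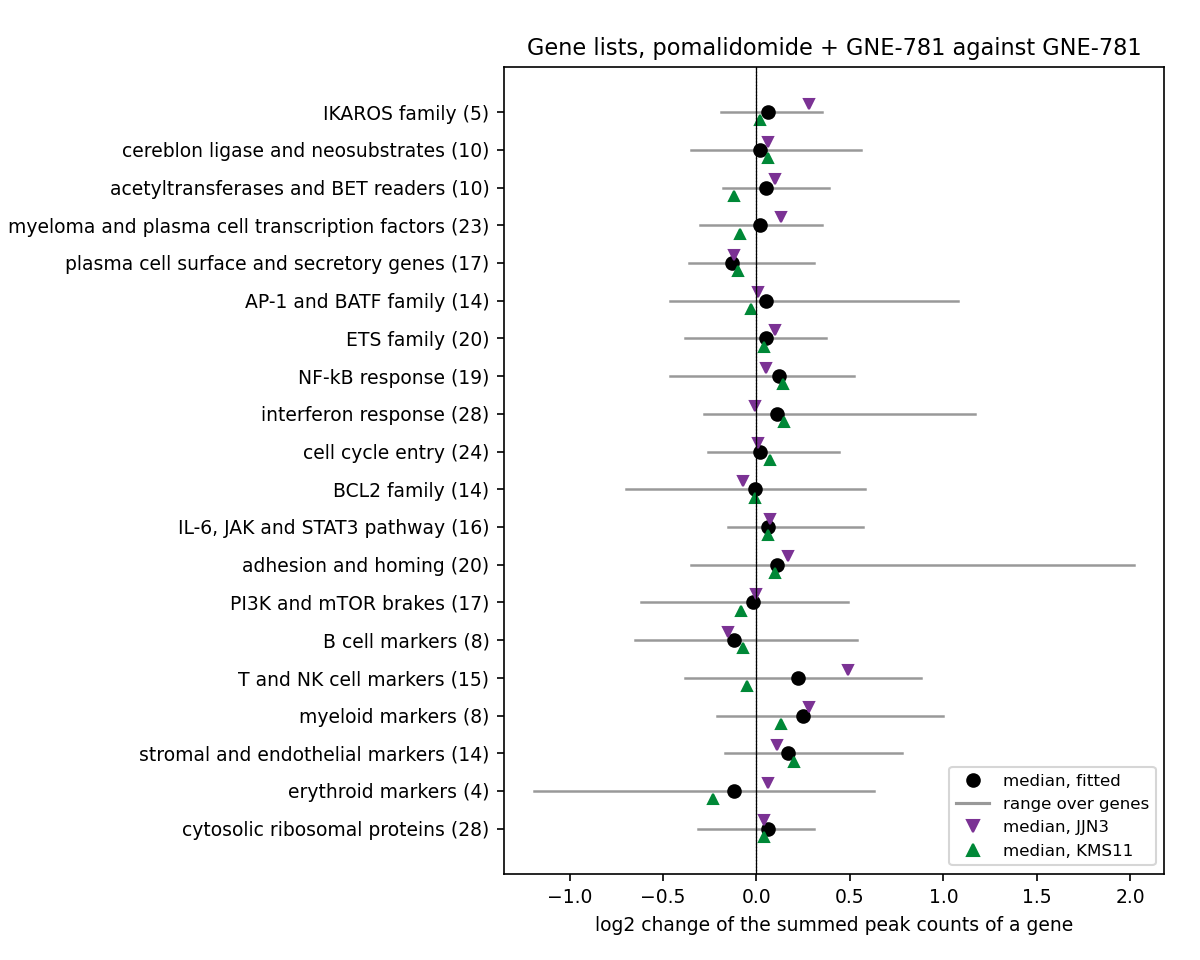
Log2 change of genes on the GNE-781 background for each of 20 lists, with the number of genes tested in brackets; black points are the fitted medians, grey lines the range over genes, and triangles the medians within JJN3 (down) and KMS11 (up). The medians lie between -0.13 and 0.25, and CTNND1 at 2.02 sets the upper end of the adhesion list.

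Markers of other cell types were also read. Of 41 peaks at T and NK cell genes 2 rose (4.88%, against 1.56% over all peaks), at CD8B (0.94) and TRAC (1.82). Of 33 at B cell genes 2 rose (6.06%), both in BANK1 (2.27 and 1.39). The first BANK1 peak went from 3 to 13 counts in JJN3 and from 3 to 37 in KMS11. The second BANK1 peak was lower in JJN3 (3.21 to 1.46 CPM) and higher in KMS11 (5.82 to 21.2 CPM). Stromal and endothelial genes had 2 rises among 52 peaks (3.85%), in ACTA2 (2.46) and PECAM1 (0.93). The ACTA2 peak went from 5 to 33 counts in JJN3 and from 1 to 15 in KMS11. None of the 8 myeloid and 5 erythroid peaks rose, which are too few to set beside 1.56%. No peak was listed for MS4A1, CD3D, CD14 or LYZ. The summed level of the T and NK list went from 592 to 657 CPM in JJN3 and from 597 to 571 in KMS11, and that of the B cell list from 256 to 227 and from 407 to 402. Over promoter peaks alone the median of the T and NK list turned from 0.22 to -0.26, of the stromal list from 0.17 to -0.19 and of the adhesion list from 0.11 to -0.10.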

How the data were processed

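The authors deposited 1 table of raw read counts, whole numbers without normalization, over 62528 peaks in all 8 libraries, each peak with its nearest annotated transcript. Per the submitters' processing notes, reads were placed on build GRCh38, and the tools named were MACS2 2.1.1.20160309, Bowtie2 2.3.5.1, R 4.1.2, Trim Galore 0.6.4, SAMtools 1.10 and cutadapt 2.5. The handling of duplicates and of the transposase offset is not given in the sources used here. Where PCR copies were counted, reads are not independent molecules.

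Peaks with a mean of at least 2 CPM over the libraries compared were tested with edgeR 4.0.16 (R 4.3.3; TMM scaling, quasi-likelihood test, two-sided, cell line as a block, Benjamini-Hochberg adjustment). Both peak fits of 4 libraries had 1 residual degree of freedom and infinite estimated prior degrees of freedom. Peaks of a like level thus shared 1 spread, and a peak's own disagreement between lines hardly entered its p or SE. The gene fit on GNE-781 had 1 and 77.7, and the fit of the difference between backgrounds 3 and 62.8. Leave-out fits used all 8 libraries less 1. CPM values are TMM scaled over 8 libraries, and changes within a line used a prior count of 2. Counts were also summed per gene. DESeq2 1.42.0, other scalings and filters, thinning and leaving out libraries were alternatives. The same line links the samples of a replicate number, so the block is the pairing. The procedure was also run on simulated counts, with the same change in both lines and 1 spread for all peaks. That run therefore cannot show how calls behave where the lines disagree.

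The members and the gene lists (382 genes in 20 lists, 310 with a peak, 9 of them by an older symbol) were chosen with earlier results of these data known. Named were the 10 largest called rises and falls with the same sign in both lines and a mean of at least 20 counts, up to 3 called peaks per list by adjusted p, the summed value of 14 genes whatever it was, and the 5 genes with most called peaks.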

Additional observations from a re-analysis of the deposited data

Results flagged for a closer look

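At the BCL2L1 peak the lines moved in opposite directions on both backgrounds: the log2 change was -0.05 on GNE-781 and -0.67 on DMSO in JJN3, and 1.96 and 1.89 in KMS11. The mean difference, JJN3 minus KMS11, was -2.29. JJN3 had 4 and 5 counts there on GNE-781. The summed IKZF1 signal did likewise on a smaller scale, with changes of 0.28 and 0.28 in JJN3 and -0.06 and -0.18 in KMS11, a mean difference of 0.40. Neither difference between the lines was tested.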

How the results depend on the processing

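With edgeR and the cell line as a block, other scalings and filters left 1126 to 1219 called peaks on GNE-781, against 1135. The fit of all 8 libraries called 681 peaks and 131 genes, against 266, and 780 peaks on DMSO. Counts thinned to the shallowest library gave 0 peaks and 147 genes on GNE-781 and 235 peaks on DMSO, against 1114. The prior degrees of freedom of the thinned fit on GNE-781 were 4.92 instead of infinite. DESeq2 called 9 peaks and 2 genes on GNE-781 and 0 peaks on DMSO. With no replicate block, which puts the difference between the lines into the spread, the calls were 0 peaks on GNE-781, 0 on DMSO and 0 genes. Leaving out 1 library from the 8-library fit left 56 to 656 peaks and 5 to 107 genes on GNE-781, 64 to 610 peaks on DMSO and 0 to 1 peaks for the difference between backgrounds. The second BANK1 peak ranged up to 1.8 and turned to -0.60 without the KMS11 library with GNE-781 and to -0.04 without that with both drugs. Of the peaks called on DMSO, 97.6% to 98.3% had the same sign on GNE-781 under the 6 alternatives that gave calls, against 97.7%, and DESeq2 gave none to read. Except as named, the cause was not tested. By mean count, 0.269% of peaks under 15.5 rose, 2.59% of those between 35.2 and 68, and 2.07% of those above; the part of depth in this was not tested.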

Other observations

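Summed over their peaks, several genes outside the lists changed on GNE-781, picked here after their values were seen. ITGA10, an integrin collagen receptor chain, went from 28.7 to 54.5 CPM in JJN3 and from 27.9 to 72.5 in KMS11 (log2 change 1.21, edgeR adjusted p = 6.25e-05), and on DMSO from 23.1 to 53.0 and from 22.7 to 65.9. COL9A1, a cartilage collagen chain, went from 34.0 to 74.5 CPM in JJN3 and from 18.7 to 53.3 in KMS11 (log2 change 1.34, adjusted p = 1.22e-05). KIF25, a kinesin, went from 18.9 to 57.5 and from 20 to 55.8 CPM (log2 change 1.53, adjusted p = 1.80e-06). Among the falls, MAGEA3, a cancer-testis antigen gene on chromosome X, went from 35.9 to 13 CPM in JJN3 and from 10.8 to 5.75 in KMS11 (log2 change -1.18, adjusted p = 0.0229). PTPRN2, a gene with 67 peaks, went from 1530 to 1060 CPM in JJN3 and from 1150 to 920 in KMS11 (log2 change -0.42, adjusted p = 0.000305). PRDM9, a meiotic histone methyltransferase, went from 629 to 463 and from 307 to 229 CPM (log2 change -0.43, adjusted p = 0.00678).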
